A study of Mus musculus with 2 samples.

Results

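Red cells and their precursors were studied as the barcodes in which messages of the 4 adult globin genes, Hba-a1, Hba-a2, Hbb-bs and Hbb-bt, made up at least 20% of the unique molecular identifiers (UMIs, each counting 1 captured RNA molecule). This threshold took 136 of 2462 barcodes in 2 single-cell libraries of mouse pancreas. Members with fewer than 200 detected genes, 128 barcodes, were treated as red cells and reticulocytes and are called red cell barcodes. The other 8, with at least 200 genes, were candidates for nucleated erythroid cells. Both libraries came from R26[CA]30EYFP mice on the C57Bl/6J background after pancreatitis, and for both the treatment is given as none. One library held cells sorted as EYFP positive and the other held cells sorted as EYFP negative. The reporter allele sits at Rosa26 behind a CA repeat that keeps EYFP out of frame, so that a slip in the repeat marks a cell and its descendants whatever their type. The labels state neither how many animals were used, nor their age or sex, nor how long after pancreatitis the cells were taken. With 1 library per group, no difference has a replicate check, no p-value is given, and sort group and library cannot be told apart. All intervals are exact 95% intervals that cover counting error only.

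Red cells develop from erythroblasts that divide while they accumulate hemoglobin, an assembly of alpha and beta globin chains with heme. Late erythroblasts condense and expel the nucleus, and the reticulocyte that results clears its mitochondria, ribosomes and most remaining RNA before it becomes a mature red cell. In adult mice this occurs in bone marrow and spleen, and the pancreas is not known as a site of it.

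The sequences in front of the globin genes are shown because every member was chosen on these transcripts. They are the 150 bases before each start in the RefSeq promoter table for GRCm38.p6. GENCODE, used for the gene spans given further on, sets several of these starts upstream, so windows and spans overlap. The sequences are written 5′ to 3′ on the gene's strand. Capitals mark 4 motifs on either strand: CACCC (bound by Klf1-type factors), CCAAT or its reverse complement ATTGG, GATA and the TATAA element. The windows lie at chr11:32283522-32283671 on the plus strand for Hba-a1, at chr7:103827929-103828078 on the minus strand for Hbb-bs and at chr7:103813924-103814073 on the minus strand for Hbb-bt. The Hba-a2 window, chr11:32296342-32296491 on the plus strand, repeats that of Hba-a1 with a shift of 3 bases and is not printed.
Hba-a1: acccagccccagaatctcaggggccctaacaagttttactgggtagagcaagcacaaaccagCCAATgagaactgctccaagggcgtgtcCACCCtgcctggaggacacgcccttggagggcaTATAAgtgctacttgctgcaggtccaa
Hbb-bs: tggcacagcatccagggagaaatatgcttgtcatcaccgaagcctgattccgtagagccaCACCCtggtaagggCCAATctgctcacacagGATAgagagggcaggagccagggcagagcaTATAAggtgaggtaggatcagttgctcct
Hbb-bt: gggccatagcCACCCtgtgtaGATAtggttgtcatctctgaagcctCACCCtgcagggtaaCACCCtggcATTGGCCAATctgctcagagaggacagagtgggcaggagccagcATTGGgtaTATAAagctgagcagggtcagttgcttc
Hbb-bt held 3 CACCC and 3 CCAAT matches, against 1 of each in front of Hbb-bs and Hba-a1, and its CCAAT box directly follows an ATTGG. The GATA letters occurred in both beta windows and were not found in the alpha windows. Of 32851 windows of the same length, 37.4% held CACCC, 24.5% CCAAT, 35.7% GATA and 14.2% TATAA, and 0.454% held all 4. These matches describe letters and are not measured binding sites.

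How reads were assigned within a pair of near-identical globin genes bears on every share of Hbb-bt and of Hba-a2 below. In GENCODE M21 (GRCm38) the genes have 3 exons each: Hbb-bs at chr7:103826534-103828096 and Hbb-bt at chr7:103812524-103813996 on the minus strand, Hba-a1 at chr11:32283511-32284465 and Hba-a2 at chr11:32296489-32297298 on the plus strand. The open reading frames of Hbb-bs and Hbb-bt, each 444 bases for 147 amino acids, differ at 1 base, C417T, counted from the A of the start codon with the Hbb-bs base first. Bases 387 to 444 of each frame are shown, with the differing base in capitals.
Hbb-bs: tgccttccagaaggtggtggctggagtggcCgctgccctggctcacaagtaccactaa
Hbb-bt: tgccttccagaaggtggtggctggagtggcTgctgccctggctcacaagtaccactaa
Within the frame, 7.91% of all stretches of 91 bases were found in 1 of the beta transcripts and not in the other. Over whole transcripts the figure was 36.8% for Hbb-bs and 44.5% for Hbb-bt. The length of 91 bases is an illustration, since no source used here gives the read length. Hba-a1 and Hba-a2 also differed at 1 of 429 bases, C381T. Reads that lie within the frame can seldom tell the beta genes apart. Of stretches that touch the bases before the frame, 73.6% of Hbb-bs and 89.0% of Hbb-bt were absent from the other beta transcript. In the alpha pair this held for 82.1% of Hba-a1 and 0% of Hba-a2. These bases follow the GENCODE transcripts and number 53 for Hbb-bs, 127 for Hbb-bt, 196 for Hba-a1 and 35 for Hba-a2. By the RefSeq starts, part of those of Hbb-bt and Hba-a1 lies in the promoter windows printed above. The shares of stretches that touch them thus depend on the start used. Where the reads lay was not measured, and its effect on the shares was not tested.

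The EYFP positive library held 4006807 UMIs in 1717 barcodes, of which 43 were members, or 2.50% (1.82 to 3.36). Of the 745 barcodes and 5295816 UMIs of the EYFP negative library, 93 were members, or 12.5% (10.2 to 15.1). Red cell barcodes numbered 41 and 87, and nucleated candidates 2 and 6. Members held 96.5% of all adult globin UMIs in the EYFP positive library, 115423 of 119604, and 99.8% in the EYFP negative library, 404236 of 405076. No barcode sequence was shared between members of the 2 libraries, while 4 were shared over all barcodes. In the EYFP negative library the threshold fell in a gap: the highest globin share outside was 1.16% and the lowest inside 58.4%. In the EYFP positive library it did not, with 18.4% and 18.2% just outside, 20.04% and 21.8% just inside, and the next member at 39.96%. The plot of globin share against detected genes shows the gap and the graded EYFP positive shares.

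**Figure D1:**
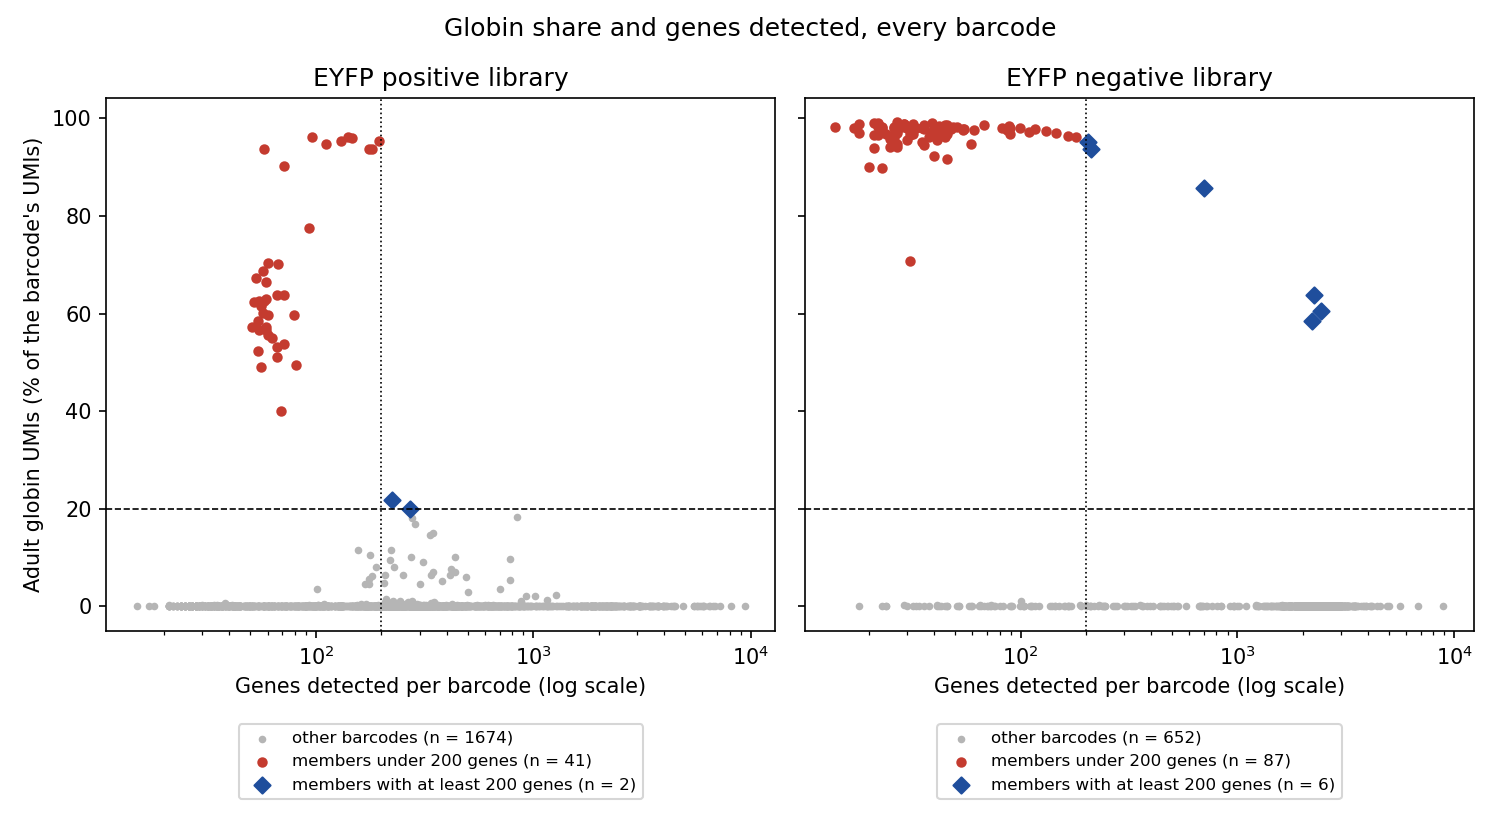
Share of UMIs from the 4 adult globins (percent) against detected genes (log axis) for every barcode, 1 panel per library; the dashed line marks the 20% threshold and the dotted line the split at 200 genes. EYFP negative members lie between 58.4% and 99.2%, far above all other barcodes, while EYFP positive barcodes fill the range from 5% to 20% as well.

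The labels of the members were checked against 15 erythroid marker genes other than globins. In the 87 EYFP negative red cell barcodes these gave 480 UMIs from 7 genes in 62 barcodes, or 5.95% of non-globin UMIs, and Alas2 alone gave 460 of them. The 41 EYFP positive red cell barcodes held 156 such UMIs from 5 genes in 26 barcodes, or 1.08%, of which Alas2 gave 139, so the check rests mostly on 1 gene. Klf1, Gata1, Epor, Rhd, Rhag, Ermap, Cldn13 and Kel, which are markers of earlier nucleated stages or blood group proteins, were at 0 in the red cell barcodes of both libraries. Markers of macrophages, T cells, B cells, neutrophils, platelets and fibroblasts were all at 0 in the EYFP positive red cell barcodes. Markers of the enzyme-secreting acinar cells, however, gave 786 UMIs there and were found in all 41, ductal epithelial markers gave 4 and endothelial markers 3. Of the EYFP negative ones, summed macrophage markers gave 2 UMIs, T cell markers 5, B cell markers 14 and ductal epithelial markers 2. Acinar markers gave 21 UMIs, from 10 of 87 barcodes.

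Hbb-bs was the globin gene with the most UMIs in the red cell barcodes of both libraries. The 87 EYFP negative red cell barcodes held 168389 UMIs of Hbb-bs, 79940 of Hba-a1, 60892 of Hba-a2 and 19027 of Hbb-bt. The 41 EYFP positive ones held 58385, 24965, 19733 and 11981 in the same order. The other globins were close to 0: the theta-like genes Hbq1a and Hbq1b gave 8 and 2 UMIs in the EYFP negative and 7 and 2 in the EYFP positive red cell barcodes. The embryonic globin genes, Hbb-y, Hbb-bh1, Hbb-bh2 and Hba-x, had no UMI in any member. These are UMI counts per gene and were not scaled to transcript length.

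The share of beta globin UMIs assigned to Hbb-bt differed widely between EYFP negative red cell barcodes. Summed over the 87 barcodes the share was 10.2% (10.0 to 10.3), yet single barcodes ran from 0.262% to 25.5%, with a median of 2.45% and quartiles at 1.14% and 4.86%. The mean over barcodes was 4.95% ± 6.06 (SD, n = 87), where counting error alone gives an SD of 1.06. In 84 of the 87 the barcode's own interval excluded the pooled share. Barcodes with more UMIs had a higher Hbb-bt share (Spearman's rho 0.56, Pearson's r 0.82, across 87 barcodes of 1 library, given as a description).

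In the EYFP positive library the red cell barcodes fell into 2 sets by total globin share, and the boundary at 80% was chosen after the values were seen. A set of 10 barcodes had at least 90.3% globin and 2939 to 19215 UMIs. The other 31 had 39.96% to 77.5% globin and 521 to 1643 UMIs. In the 10 the pooled Hbb-bt share was 17.1%, single barcodes ran from 1.00% to 23.2%, and 9 of 10 intervals excluded the pooled share. In the 31 it was 16.8% (15.99 to 17.6), single barcodes ran from 13.0% to 28.5%, and 1 of 31 intervals excluded the pooled share. The SD over the 31 was 2.82 against 2.36 from counting error. The low-globin set thus lacked the barcodes with Hbb-bt shares near 1% to 5% that made up most of the EYFP negative red cell barcodes, and its shares scattered little beyond counting error.

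The alpha share of the 4 globins varied in its own way. It was 42.9% (42.7 to 43.1) over the EYFP negative red cell barcodes, with single barcodes from 26.6% to 70.4% and an SD of 9.05 against 1.25 from counting error. In 67 of the 87 the interval excluded the pooled share. Over the 10 EYFP positive barcodes with at least 80% globin the range was 35.8% to 42.5%, and over the 31 with less it was 33.8% to 47.2%. The Hbb-bt share and the alpha share showed almost no relation across the EYFP negative barcodes (rho -0.01). Within the alpha pair, Hba-a2 took 43.2% of UMIs in EYFP negative and 44.1% in EYFP positive red cell barcodes.

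**Figure D2:**
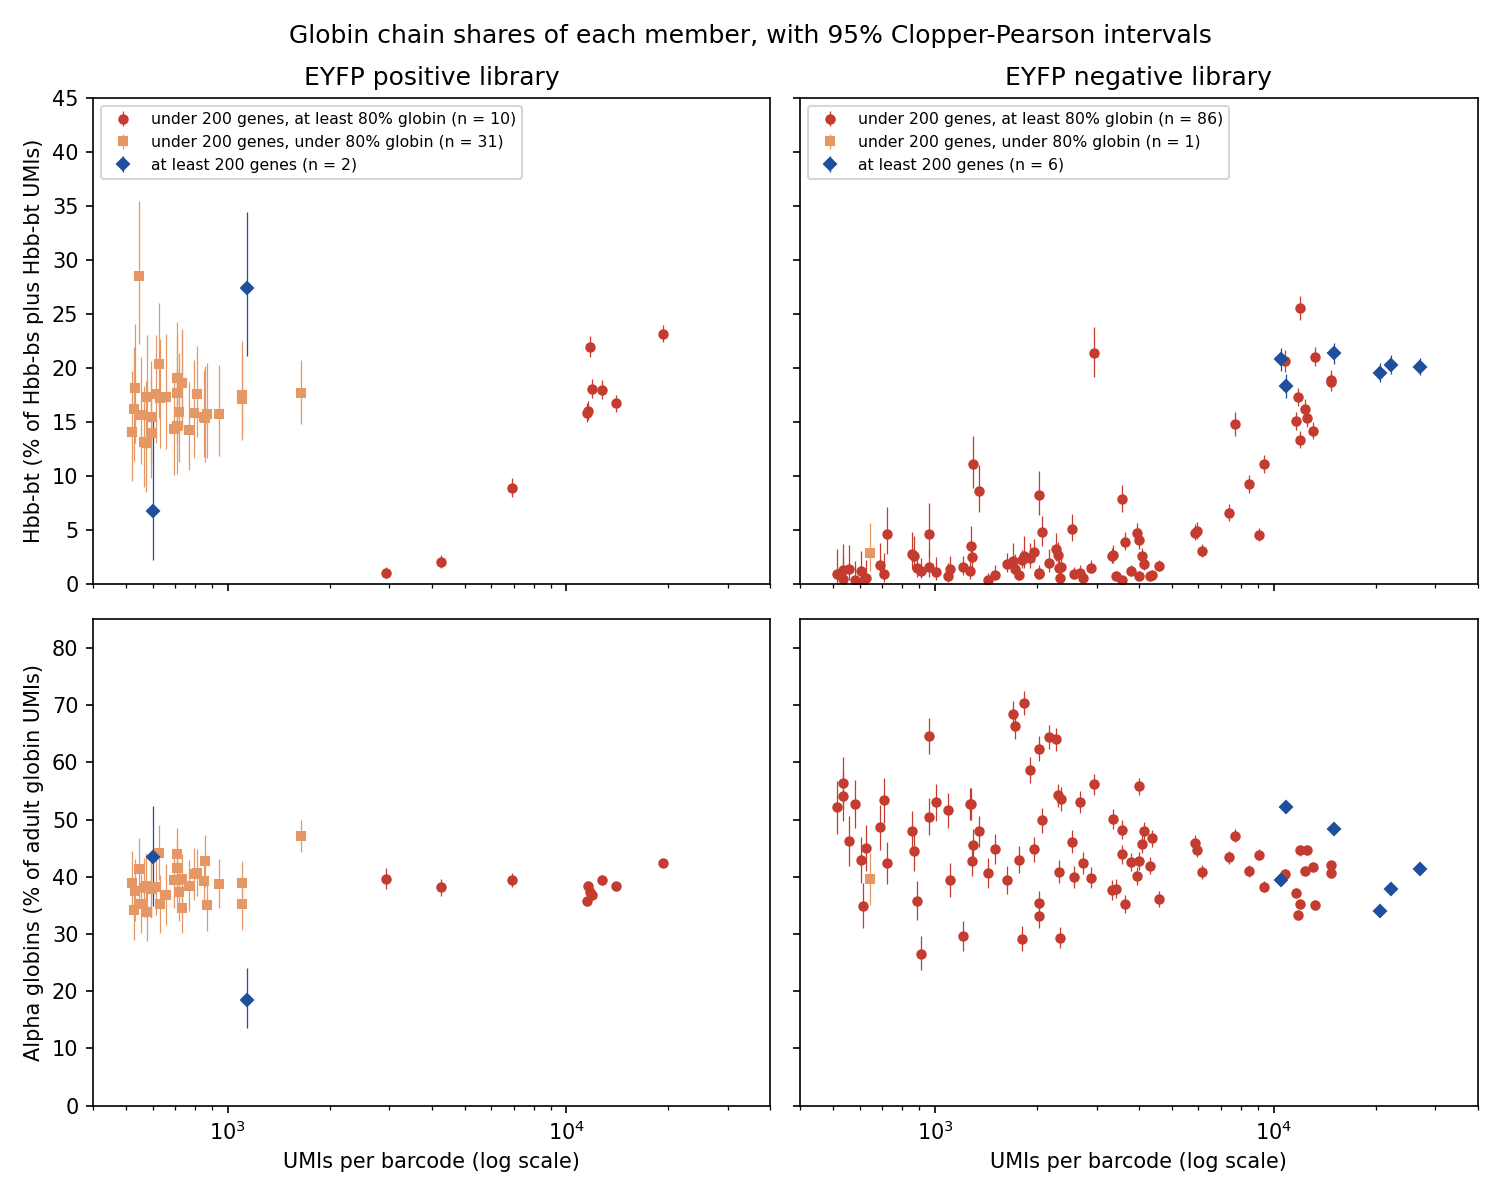
Hbb-bt share of beta globin UMIs and alpha share of all 4 globins (percent) against total UMIs (log axis), 1 point per member with its 95% interval, by library and class. EYFP negative red cell barcodes spread from 0.262% to 25.5% in Hbb-bt share, and the nucleated EYFP negative candidates lie together between 18.3% and 21.4%.

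The transcripts that went with a high Hbb-bt share were examined in the EYFP negative red cell barcodes, in classes chosen after the values were seen. A share under 5% was found in 66 barcodes, 5% to under 10% in 6, and at least 10% in 15. Median totals were 1868.5, 3046 and 11943 UMIs, and median non-globin UMIs in the first and last class 44.5 and 255. The non-globin share of UMIs was nevertheless alike at 2.35%, 2.46% and 2.43%. Comparisons between the 15 and the 66 were made on summed UMIs, scaled to the total outside the 4 globins (non-globin CPM), with a gene called where it differed at least 2-fold and had at least 10 UMIs over both sums. A side with 0 UMIs was set at a floor of 3 UMIs in the sum.

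Of 104 genes tested, 40 (38.5%) were called higher in the barcodes with a high Hbb-bt share and 27 (26.0%) lower. Mkrn1, a ubiquitin ligase gene at chr6:39397804-39420462, had 167 UMIs in 13 of 15 barcodes against 9 UMIs in 6 of 66, a 16.9-fold difference (8.69 to 37.6). Gpx1, which encodes a glutathione peroxidase that removes peroxides and lies at chr9:108338903-108340343, had 73 UMIs in 10 of 15 barcodes and none in the 66. It was at least 22.1-fold higher. Bpgm, the enzyme that makes 2,3-bisphosphoglycerate, a regulator of oxygen release, had 143 against 40 and was 3.25-fold higher (2.28 to 4.74). Fech, the last enzyme of heme synthesis, had 43 against 12 and was 3.26-fold higher (1.69 to 6.79).

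Other red cell transcripts stood level or went the other way. Alas2, the first enzyme of heme synthesis and located at chrX:150547375-150570638, had 228 UMIs in 14 of 15 barcodes and 170 in 42 of 66, a ratio of 1.22 (0.996 to 1.498). Ubb, a polyubiquitin gene, had 130 against 122, a ratio of 0.970 (0.752 to 1.25). Ftl1, the ferritin light chain that stores iron, had 144 against 229 UMIs, a ratio of 0.572 (0.461 to 0.708). Tpt1, the translationally controlled tumour protein gene, had 75 against 183 and a ratio of 0.373. Alas2, Ubb and Ftl1 were thus abundant in both classes, whereas 9 UMIs of Mkrn1 and none of Gpx1 were found below an Hbb-bt share of 5%.

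By list, 7 of 11 tested genes of late maturation (ubiquitin system and organelle clearance) were called higher and none lower, with a median log2 difference of 1.56 against 0.48 over all genes tested. Of 25 ribosomal protein genes, 16 were lower and none higher, with a median of -1.60. Of 7 mitochondrially encoded genes, 4 were lower and none higher, but this came from 1 barcode with an Hbb-bt share under 5% and over 20% mitochondrial UMIs. Without it, all 4 mitochondrial genes still tested were higher, with a median log2 difference of 2.14, while the ribosomal protein counts were the same. H3f3a (a replacement histone H3), Pabpc1 (a poly(A)-binding protein) and Map1lc3b (an autophagosome protein) were 15.5-fold, 9.40-fold and 9.10-fold higher. They were named after their values were seen. Dividing by all UMIs moved each log2 difference by 0.05.

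Depth differed between the classes, so each barcode was also thinned to 500 UMIs. The median number of detected genes was then 13 in each class. Mkrn1 was found in 4 of 15 barcodes with a high Hbb-bt share (26.7%, 7.79 to 55.1) and in 0 of 66 with a low one (0%, 0 to 5.44). Gpx1 was found in 3 of 15 and 0 of 66, and Bpgm in 7 of 15 and 4 of 66. Alas2 was found in 8 of 15 and 25 of 66, or 53.3% and 37.9%. Among barcodes with at least 3000 UMIs, 13 against 18, Mkrn1 was 8.15-fold higher (4.04 to 19.2) and Gpx1 had 72 UMIs against 0. There Bpgm was 1.64-fold and Fech 1.66-fold (0.819 to 3.71) higher, both no longer past 2-fold. Alas2 was lower, with a ratio of 0.762 (0.606 to 0.964).

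The same genes were followed in the 10 EYFP positive barcodes with at least 80% globin. In the 7 with an Hbb-bt share of at least 10%, Mkrn1 gave 96 UMIs and Gpx1 104, each in 6 of the 7. In the 2 with a share under 5%, Mkrn1 and Gpx1 had 0 UMIs while Alas2 had 7 and Ftl1 21. The single barcode in between had 1 UMI of Mkrn1 and none of Gpx1. With so few barcodes the counts are given without a comparison.

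**Figure D3:**
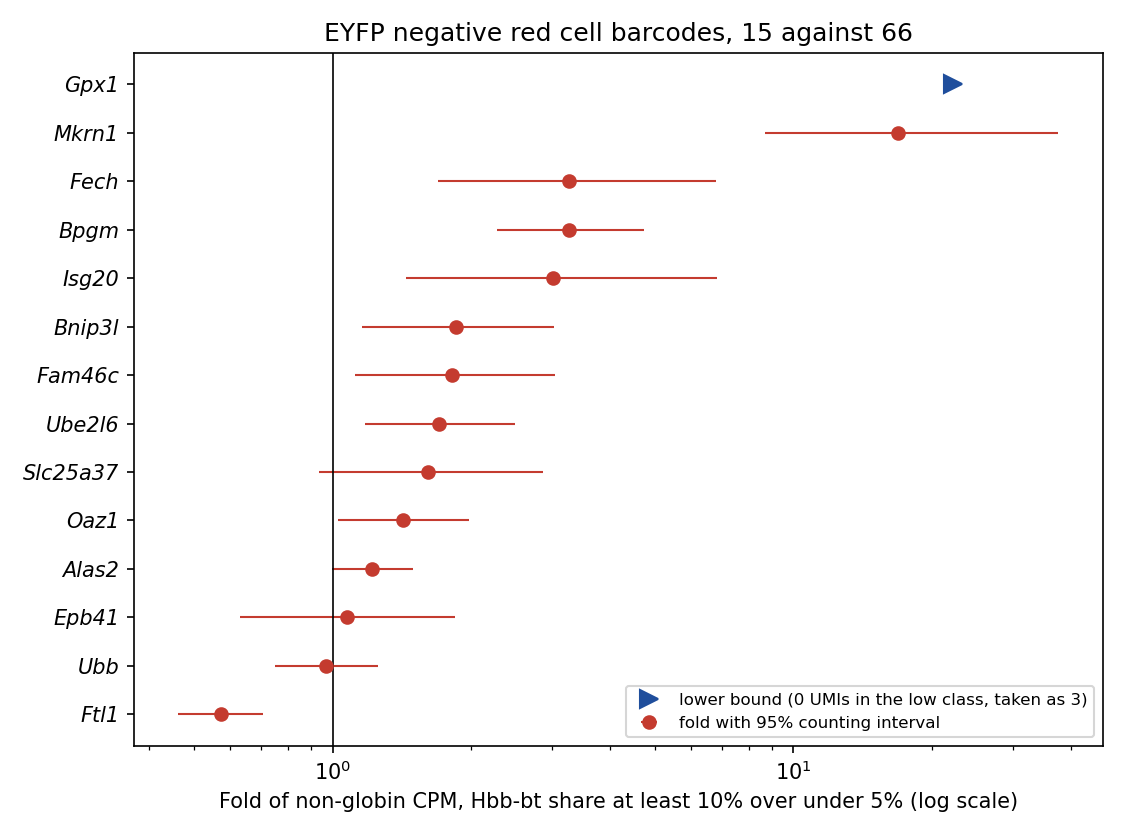
Ratio of non-globin CPM (log axis) in the 15 EYFP negative red cell barcodes with an Hbb-bt share of at least 10% over the 66 with a share under 5%, for genes chosen after their values were seen; bars are 95% intervals and a triangle is a lower bound. Mkrn1 lies at 16.9-fold and Gpx1 at or above 22.1-fold, while Alas2 (1.22) and Ubb (0.970) lie near 1 and Ftl1 (0.572) below it.

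The 6 EYFP negative nucleated candidates were unlike each other. In order of decreasing UMIs they held 27123, 22209, 20670, 15101, 10883 and 10521 UMIs, 2255, 2423, 2209, 704, 204 and 212 genes, and globin shares of 63.8%, 60.6%, 58.4%, 85.7%, 95.1% and 93.7%. The first and the third held markers of dividing erythroid cells, with 310 and 343 UMIs over 20 mitosis genes and 82 and 49 UMIs over erythroid transcription factor genes. The second had 1 UMI of the mitosis genes and none of the transcription factors, and it alone carried T cell markers, 53 UMIs led by Cd3d (13) and Cd8b1 (12). It also held 7 UMIs of NK and 6 of B cell markers, and 34.4% of its non-globin UMIs were ribosomal protein messages against 2.77% to 4.80% in the other 5. The fourth, with 704 genes, had 11 transcription factor and 6 mitosis UMIs, and the last pair, with barely over 200 genes, had 1 and 0 transcription factor UMIs.

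Marker genes followed the same order. Slc4a1, the band 3 anion exchanger and most abundant red cell membrane protein (chr11:102348824-102366203), had 65, 1, 59, 31, 6 and 8 UMIs in candidates 1 to 6. Rhd, the Rh blood group protein, had 30, 0, 41, 19, 0 and 0. Klf1, the activator of adult beta globin (chr8:84901928-84905291), had 13 and 8 UMIs in candidates 1 and 3 and none in the others. Tfrc, the receptor that takes up transferrin-bound iron, had 35 and 7 UMIs there, 1 in candidate 4 and none elsewhere. In contrast, Alas2 was present in all 6 with 46, 29, 24, 14, 29 and 19 UMIs. Mkrn1 had 21, 16, 5, 28, 14 and 24 UMIs and Gpx1 118, 36, 82, 81, 17 and 47, so the transcripts that were nearly absent from red cell barcodes with a low Hbb-bt share were present in every candidate.

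The Hbb-bt shares of the 6 lay close together, at 20.1%, 20.3%, 19.6%, 21.4%, 18.3% and 20.8%, and the pooled share was 20.1% (19.8 to 20.5). Only 15 of the 87 EYFP negative red cell barcodes had a share of 10% or more. The alpha share varied more, from 34.0% to 52.3%, with the dividing candidates at 41.4% and 34.0%. Hba-a2 made up 38.2% of alpha UMIs over the 6, with a range of 27.6% to 44.2% and an SD of 6.21, against 3.27 over the 87 red cell barcodes.

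The fourth candidate differed from the dividing pair in single transcripts. Tmcc2, a transmembrane protein gene, had 28 UMIs in candidate 4 and 1, 1, 1, 0 and 0 in candidates 1, 2, 3, 5 and 6. Xpo7, a nuclear exporter, had 12 UMIs in candidate 4 and 1 in candidate 1. Malat1, a long non-coding RNA retained in the nucleus, had 365, 363 and 343 UMIs in candidates 1 to 3, 69 in candidate 4 and 0 in candidates 5 and 6. Late maturation genes made up 3.05%, 1.24%, 2.47%, 8.96%, 16.1% and 14.7% of the non-globin UMIs of candidates 1 to 6. Erythroid markers and a nuclear transcript were thus found together in candidates 1, 3 and 4. In candidate 2 the Malat1 UMIs cannot be assigned, since it also carried T cell markers, and candidates 5 and 6 held none.

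**Figure D4:**
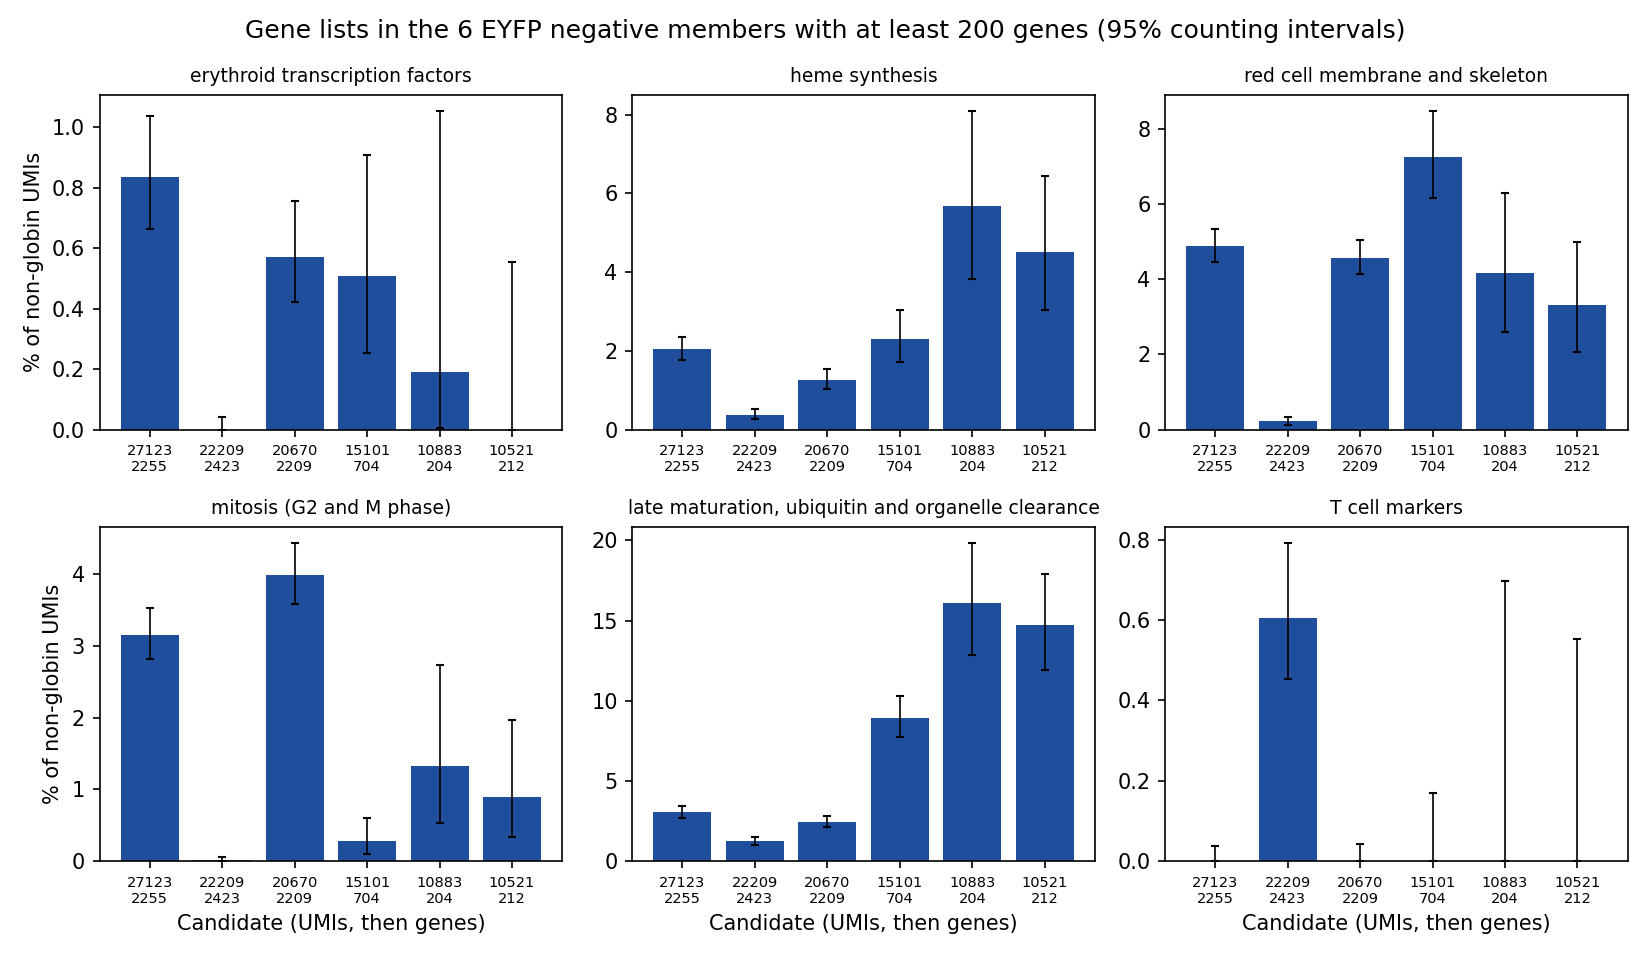
Share of non-globin UMIs (percent) from 6 gene lists, 1 panel each, in the 6 EYFP negative candidates ordered by UMIs; bars are the shares, error bars 95% counting intervals, and axis labels give UMIs and genes. Mitosis genes make up 3.16% and 3.99% in candidates 1 and 3, late maturation genes 16.1% and 14.7% in candidates 5 and 6, and T cell markers appear in candidate 2.

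The 6 candidates were compared with 547 other EYFP negative cells (200 genes or more, no more than 20% of UMIs mitochondrial) in non-globin CPM, as a description of what came with the globin messages that chose them. Of 11324 genes tested, 1787 (15.8%) were higher by at least 2-fold and 662 (5.85%) lower. All 8 heme synthesis genes were higher, with a median log2 difference of 6.27, against 0.00 over all genes tested with zeros at the bound. Alas2 had 161 UMIs against 1 in the 547 cells. Fech was 241-fold (160 to 368) and Alad 79.98-fold (52.3 to 121) higher, and Cpox, a later step of the same pathway, 56.1-fold (38.1 to 81.2). On CPM of all UMIs every log2 difference was lower by 1.80, because 28.7% of the candidates' UMIs were outside the globins, and the 8 genes were still all higher.

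Membrane and skeleton genes were higher for all 24 tested, with a median of 9.31, and Slc4a1 had 170 UMIs against 2. Of 15 erythroid transcription factor genes 11 were higher, and Klf1 had 21 UMIs against 0. Car2, the carbonic anhydrase of red cells, was 620-fold higher (461 to 846), Gpx1 58.1-fold (51.5 to 65.4) and Prdx2, another peroxide-removing enzyme, 68.7-fold (58.8 to 80.1). Iron genes were higher for 11 of 16, among them Slc25a37, the mitochondrial iron importer, at 126-fold (92.2 to 172). Late maturation genes were higher for 22 of 23, with Ube2l6, a ubiquitin-conjugating enzyme, at 440-fold (285 to 697). Of 13 glycolysis genes 6 were lower and 1 was higher, Bpgm at 249.5-fold (180 to 347). Fewer genes passed on CPM of all UMIs, 21 of 24 membrane genes, 9 of 15 transcription factors, 8 of 16 iron genes and 18 of 23 late maturation genes. On that scale 3 transcription factor, 3 iron, 1 late maturation and 10 glycolysis genes were lower.

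All 20 mitosis genes were higher, on either scale, with a median log2 difference of 5.90 in non-globin CPM. Mki67, a proliferation marker, was 77.8-fold (59.0 to 102), Cenpf, a centromere protein, 99.3-fold (74.2 to 132), and Top2a, a topoisomerase of dividing cells, 54.7-fold (41.2 to 71.8) higher. These UMIs came almost wholly from candidates 1 and 3, which held 38 and 43 of the 82 Mki67 UMIs. Of 16 DNA replication genes 5 were higher, 1 lower and 10 in between. Kit, Gata2 and Myb, genes of earlier progenitors, had no UMI in the 6, and Epor, the erythropoietin receptor, had 8 UMIs against 0 in the 547 cells.

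Ribosomal protein genes were lower for 69 of 81 and higher for none, with a median of -1.47. Eef1a1, a translation elongation factor, had a ratio of 0.293 (0.227 to 0.372), Tmsb10, an actin-binding thymosin, 0.220 (0.158 to 0.299) and Actb, cytoplasmic actin, 0.401 (0.335 to 0.476). Most of these Eef1a1 UMIs (56 of 67) and all of the Tmsb10 UMIs (41 of 41) came from candidate 2, the only one with T cell markers. In candidates 1 and 3 alone, a pair chosen after the values were seen, 1782 of 11314 genes were higher (15.8%) and 349 lower (3.08%). The pair was chosen for its mitosis and erythroid transcription factor UMIs, so values of those lists carry no finding. Ribosomal protein genes, which the choice did not use, were lower for 78 of 81, with a median of -3.54, and T cell markers were at 0.

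Red cell barcodes were then set against the candidates of the same library. Of 615 genes tested in non-globin CPM, 78 (12.7%) were higher in the red cell barcodes and 215 (35.0%) lower. Late maturation genes were higher for 11 of 20 and lower for 4, with a median of 1.71 against -0.40 over all genes. Alas2, with 460 against 161 UMIs, was 10.8-fold higher (9.02 to 13.0), Ftl1 7.30-fold (6.16 to 8.67), Bpgm 7.27-fold (5.69 to 9.34), Mkrn1 6.31-fold (4.94 to 8.09), Bnip3l, the receptor for clearing mitochondria, 6.11-fold (4.34 to 8.66) and Epb41, a protein of the membrane skeleton, 5.93-fold (4.04 to 8.77). Of these, Mkrn1 and Bnip3l belong to the late maturation list.

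Genes of the nucleated stages lay lower. Slc4a1 had 2 UMIs against 170 and Car2 9 against 223, the last 6.55-fold lower. Hmgb2, a chromatin protein, had none against 202 and was at least 17.8-fold lower. Membrane and skeleton genes were lower for 11 of 22, mitosis genes for 9 of 16 and chromatin proteins for 6 of 11. Gpx1 had a ratio of 0.725 (0.557 to 0.934). On CPM of all UMIs, which lowers each log2 difference by 3.58, 1 gene was higher and 587 lower, and the median of the late maturation list was -1.87. The higher values in red cell barcodes thus hold for the makeup of their non-globin RNA and not for their whole RNA.

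The EYFP positive and EYFP negative red cell barcodes differed in the RNA that accompanied the globins. Gm42418, a predicted gene that overlaps ribosomal RNA sequence (chr17:39846958-39848788), had 7910 of 14493 non-globin UMIs in the 41 EYFP positive barcodes and 683 of 8062 in the 87 EYFP negative ones. The per-barcode counts were 100 to 536 with a median of 176, against 0 to 60 with a median of 6, and did not overlap. Other barcodes of the 2 libraries differed in the same direction, with medians of 254 and 18.5 UMIs. Its part in the results below was not tested.

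Acinar enzyme messages also lay higher in the EYFP positive red cell barcodes, 786 UMIs of 12 genes against 21. Of 185 genes tested, 32 (17.3%) were higher by at least 2-fold in non-globin CPM and 112 (60.5%) lower, with a median over all genes of -1.43. Of the 12 acinar genes 11 were higher, and Ctrb1, a chymotrypsinogen, had 158 UMIs against 0 and was at least 29.3-fold higher. Alas2 had 139 UMIs against 460 and was 5.95-fold lower (4.91 to 7.24), and 11 of 12 late maturation genes were lower. The non-globin share of UMIs was 11.2% in the EYFP positive and 2.40% in the EYFP negative barcodes, so CPM of all UMIs raises each log2 difference by 2.22. On that scale 82 genes were higher and 8 lower, 1 of 12 late maturation genes was higher and none lower, and the ratio for Alas2 was 0.784 (0.644 to 0.9502). Acinar genes were higher for 12 of 12. The lower red cell messages in the EYFP positive barcodes were thus found beside a large amount of Gm42418 and acinar RNA and did not pass 2-fold relative to all UMIs.

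The same comparison was made in barcodes with at least 80% globin, 10 against 86. Of 155 genes, 30 (19.4%) were higher and 51 (32.9%) lower in non-globin CPM, whereas 53 were higher and 14 lower on CPM of all UMIs. Late maturation genes then stood close, with 1 of 12 lower and a median of -0.41 against -0.57 over all genes. Alas2 was 2.59-fold lower (2.11 to 3.19), while Mkrn1 had a ratio of 0.798 (0.617 to 1.03) and Bpgm 1.23 (0.990 to 1.52). Gpx1, with 104 UMIs against 73, was 2.11-fold higher (1.55 to 2.88), Car2, with 28 against 9, was 4.60-fold higher (2.11 to 11.1), and Ube2c, a ubiquitin-conjugating enzyme of mitosis, with 29 against 6, was 7.15-fold higher (2.92 to 21.1). On CPM of all UMIs Alas2 had a ratio of 0.821 (0.666 to 1.01), and Gpx1, Car2 and Ube2c were 4.48-fold, 9.79-fold and 15.2-fold higher. Of these 10 EYFP positive barcodes 7 had an Hbb-bt share of at least 10%, against 15 of the 87 EYFP negative ones. The part of that difference in the gene values was not tested.

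The 31 EYFP positive red cell barcodes with under 80% globin had a makeup of their own. Gm42418 made up 67.1% of their non-globin UMIs, acinar genes 6.92%, mitochondrially encoded genes 7.82% and ribosomal protein genes 3.02%. All 31 held acinar UMIs, 635 in all from 12 of 12 genes. So did all 10 red cell barcodes with more globin and 1673 of the 1674 other EYFP positive barcodes. The corresponding values in the 10 with more globin were 32.9%, 2.84%, 4.19% and 4.45%, and in all other EYFP positive barcodes Gm42418 made up 14.5% and acinar genes 4.09%. Within the acinar list, Ctrb1 made up 19.2% in the 31 and 21.4% in the other EYFP positive barcodes, Clps, the lipase cofactor, 9.76% and 11.02%, Cela2a, an elastase, 12.1% and 9.73%, Prss2, a trypsinogen, 13.7% and 9.60%, and Cel, a lipase, 0.945% and 1.81%. These shares were not tested.

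**Figure D5:**
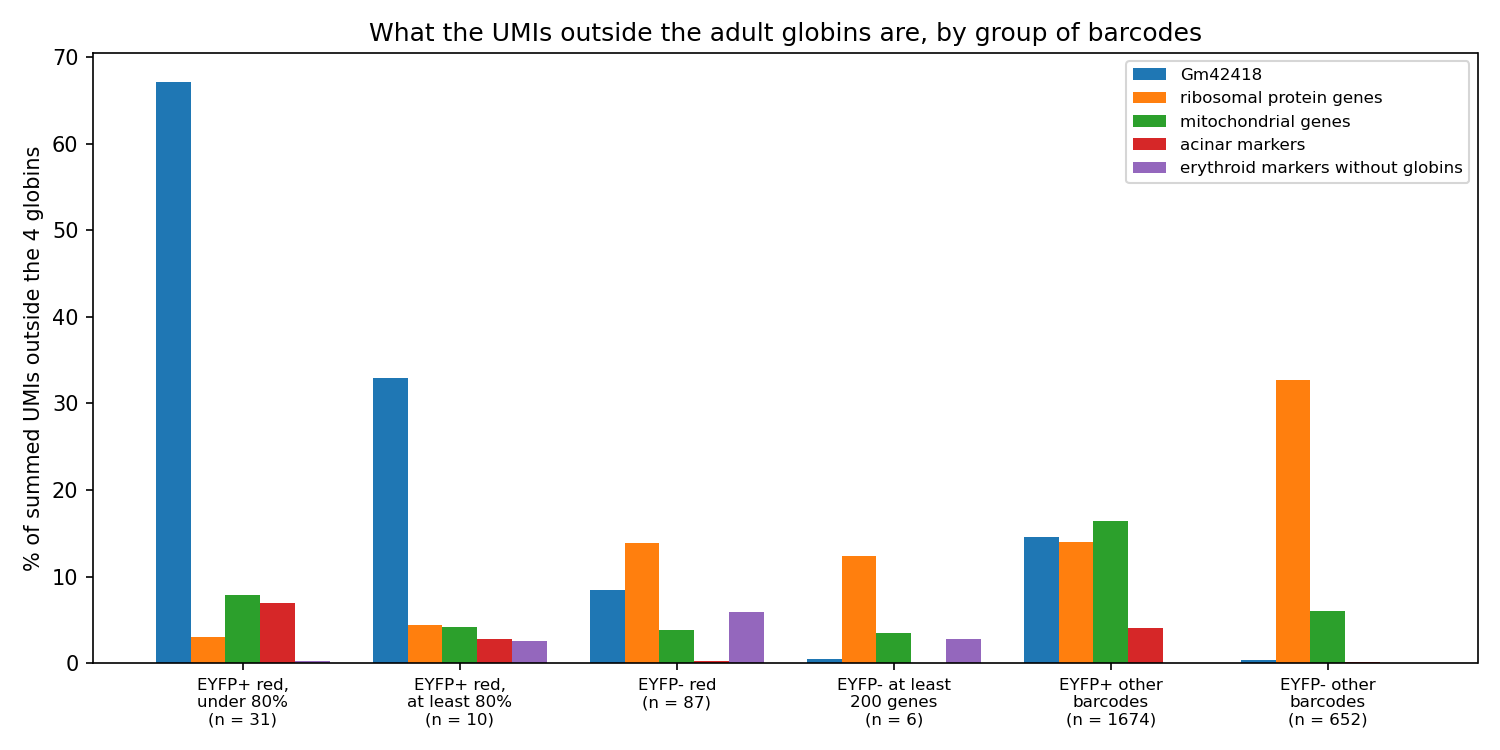
Makeup of non-globin UMIs (percent) in the groups of members and in the other barcodes of each library, by Gm42418, mitochondrial, ribosomal protein, acinar and erythroid marker genes. Gm42418 makes up 67.1% in the EYFP positive red cell barcodes with under 80% globin and 8.47% in the EYFP negative red cell barcodes.

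Against all other EYFP positive barcodes, 246 of 12030 genes (2.04%) were higher in the 31 and 154 (1.28%) lower. Late maturation genes were higher for 10 of 20 and lower for none, and ribosomal protein genes were lower for 74 of 81. Erythroid markers other than globins gave 20 UMIs in the 31 and 11 in the 1674 other barcodes, and Alas2 alone gave 19 and 4. Relative to globin itself, Alas2, Mkrn1, Bpgm and Ftl1 in the 31 stood near their values in 7 other EYFP positive barcodes. Those 7 had at least 80% globin and a high Hbb-bt share. The values in the 31 rest on few UMIs, 19 for Alas2, and have no interval. EYFP negative red cell barcodes were not set beside them. Per 10000 globin UMIs, Alas2 had 13.9 in the 31 and 12.7 in the 7, Mkrn1 12.4 and 10.9, Bpgm 13.9 and 18.0, and Ftl1 10.97 and 13.4. The Gpx1 value was 4.39, from 6 UMIs, against 11.8.

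The 2 EYFP positive members with at least 200 genes did not carry the markers of their label. The first had 1138 UMIs, 270 genes and 20.04% globin, and 322 of its UMIs came from acinar genes. The second had 601 UMIs, 224 genes and 21.8% globin, with 8 UMIs of macrophage markers and 13 of Apoe, a lipid carrier. In both, erythroid markers other than globins, heme synthesis, membrane, erythroid transcription factor and mitosis genes were all at 0. Their Hbb-bt shares, 27.4% (21.1 to 34.4) and 6.76% (2.23 to 15.1), lay apart from each other. They lie at the threshold and are called here globin-containing barcodes and not erythroid cells. Just outside it, 10 EYFP positive barcodes had 10% to under 20% globin, with acinar genes at 18.7% of non-globin UMIs and a macrophage marker in 8 of them. Of the 17 with 5% to under 10%, 14 held a macrophage marker. Below these, 9 of 16 EYFP positive barcodes with 1% to under 5% globin held one, and 212 of 1631 with under 1%. What lies behind these counts was not tested.

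Globin messages were also found at low levels outside the members. In the EYFP positive library 281 of 858 other cells with at least 200 genes had a globin UMI (32.8%, 29.6 to 36.0), and in the EYFP negative library 406 of 547 (74.2%, 70.3 to 77.8). Cells with T cell receptor complex messages, which should lack globin, gave 29.7% in 49 of 165 and 75.9% in 293 of 386. Median depth was 1007.5 and 7930 UMIs in all these cells and 2455 and 8627.5 in the T-marked ones. By level, globin made up 1270 CPM (1228 to 1312) of the EYFP positive and 165 CPM (154 to 177) of the EYFP negative cells, and 268 and 162 CPM of the T-marked cells. In the EYFP positive library 21 cells with at least 5% globin held 2623 of the 3483 UMIs, 959 of them in 1 cell, and the level over the other 837 cells was 316 CPM (295 to 338). Without the 1 T-marked cell richest in globin, the T-marked level there was 146 CPM (119 to 177). Thinned to 500 UMIs, the shares of cells with a globin UMI were 19.1% and 8.78% in all these cells, and 9.70% and 10.4% in the T-marked ones. At that depth the EYFP negative share lay near that of its T-marked cells, and the EYFP positive share was above that of its own. The thinned shares are given without intervals. T-marked cells are themselves part of the cells compared, 386 of 547 EYFP negative and 165 of 858 EYFP positive. The comparison is thus partly of a set with itself, and the source of this globin was not tested. The Hbb-bt share of beta UMIs was 10.3% (9.17 to 11.5) over all non-member barcodes of the EYFP positive library. It was 18.99% (15.9 to 22.4) over those of the EYFP negative library. The EYFP positive value rests largely on 27 barcodes with at least 5% globin, which held 2939 of the 4181 globin UMIs. In the T-marked cells the shares lay close, at 15.3% (9.30 to 23.0) in the EYFP positive and 16.3% (12.6 to 20.4) in the EYFP negative library.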

How the data were processed

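Single-cell RNA was measured in 1 EYFP positive and 1 EYFP negative library. The labels' protocols name the Chromium 5′ single-cell kit v1.1. The authors deposited raw UMI counts (whole numbers) for each gene in each barcode, with no normalization as far as the values show. Cell Ranger 2.1.0 and GRCh38 are named in the submitters' processing notes, whereas software version 3.1.0 and 31053 mouse Ensembl genes are given per the file headers. These sources differ, so the mapping build and strand setting are not taken as known. The kit named is a 5′ kit, but the transcript end read was not checked in the counts. Coordinates are from GENCODE M21, which holds 31011 of the identifiers.

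Counts were analysed in Python 3.11.15 with numpy 2.4.6, pandas 2.3.3 and scipy 1.17.1, with figures from matplotlib 3.10.9. Shares have Clopper-Pearson intervals, levels Poisson intervals and ratios conditional binomial intervals. Genes with at least 10 UMIs over both sums were tested for a 2-fold difference. List medians place genes with 0 UMIs on one side at the bound. No cells were clustered and no doublet caller was run. The scripts were tested on simulated counts. Other cells had 200 genes or more and no more than 20% of UMIs mitochondrial. T-marked ones held at least 3 UMIs of T cell receptor complex genes and none of Cd79a or Ms4a1.

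Genes were named by rule: the erythroid markers, globins and heme synthesis genes, up to 6 members of each list and 3 of each marker list by UMIs, the 15 higher and 10 lower genes that stood farthest from 1 among those with at least 30 UMIs in both sums, and the 15 non-globin genes with the most UMIs in red cell barcodes. Gm42418, Tmcc2, Xpo7, Apoe, Malat1 and genes shown for Hbb-bt classes outside the rule were named after their values were seen. The members and lists were chosen with earlier results of these data known. Results for some genes are not reported here.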

Additional observations from a re-analysis of the deposited data

How the results depend on the processing

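No paired analysis was possible because each group has 1 library. Of the main values and counts under each alternative, 69 kept within counting error or 1.5 times and 29 did not. Of the list medians and single-gene values, 1010 kept their side of 2-fold, 119 moved across it and 9 turned direction.

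The share of EYFP positive barcodes counted as nucleated candidates, 0.116%, was 0.582% with at least 10% globin, 0% with at least 40%, 0.524% with the split at 100 genes and 0% at 500. Averaged over barcodes, the Hbb-bt share was 4.95% (EYFP negative) and 16.1% (EYFP positive), and the EYFP negative alpha share 45.5%. Without the member with the most globin UMIs, Hbb-bt was 9.74% and 15.9% and the EYFP positive alpha share 38.2%. It was 39.4% in barcodes under 80% globin.

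For the nucleated candidates, CPM of all UMIs gave 678 genes higher and 2852 lower, and thinning to 1000 UMIs 883 and 112. Genes lower numbered 1022 without globin, mitochondrial, ribosomal and acinar genes in the total, 1259 as a mean over cells, 392 without the deepest candidate and 426 without the candidate that carried T cell markers. CPM of all UMIs turned the chromatin median to -0.12, Hmgb1 to -0.60 (-1.05 when thinned) and Ubb to -0.017. For red cell barcodes against candidates it gave 1 higher and 587 lower, with medians of -1.87 for late maturation and -0.72 for glycolysis. For EYFP positive against EYFP negative red cell barcodes it gave 82 higher and 8 lower, with medians of 0.65 for late maturation, 0.10 for iron and 0.52 for chromatin genes. With at least 80% globin, 51 were lower in non-globin CPM. For the Hbb-bt classes, 16 genes were lower with at least 3000 UMIs. Globin-containing cells thinned to 500 UMIs were 19.1% and 9.70% (EYFP positive, all and T-marked) and 8.78% and 10.4% (EYFP negative). These shifts between scales follow from the different totals; other causes were not tested.

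The settings with 80% globin, those leaving out barcodes by globin or mitochondrial share after the fact, the Hbb-bt classes with their alternatives, and the total-UMI scale for the 2 libraries were chosen after seeing the data. The 2 libraries give no measure of variation between animals. Single red cell barcodes hold few non-globin UMIs, so an absent gene there is not shown to be unexpressed. A red cell that shares a droplet with another cell and free RNA in a droplet cannot be told apart.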

Other observations

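A few further genes of the EYFP negative nucleated candidates were named after their values were seen. Rsad2, an antiviral enzyme, had 37, 18, 15, 17, 1 and 6 UMIs in candidates 1 to 6, 94 in all, against 26 in 547 other cells, and was 563-fold higher in non-globin CPM (361 to 905). Isg15, an interferon-induced ubiquitin-like protein, had 99 of its 105 UMIs in candidate 1. The histone gene Hist1h2ae had 114 of its 115 UMIs in candidate 3, where Cenpf had 22 UMIs against 59 in candidate 1 and Top2a 52 against 20.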
